A study of Mus musculus with 8 samples.

Results

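The genes described here are the 10 core circadian clock genes of the mouse: Arntl, Clock, Per1, Per2, Per3, Cry1, Cry2, Nr1d1, Nr1d2 and Dbp. They were picked by symbol from the 23846 gene entries of the deposited expression values, and each symbol had 1 entry with a number in every library. RNA was sequenced from whole hearts at embryonic day 11.5 in 4 cKO libraries and 4 control libraries. The cKO embryos were Ogt f/y males with TnT-Cre, in which the cardiac troponin T promoter drives Cre, so that Ogt is deleted in cardiomyocytes. The study reported similar OGT staining in the other cells of cKO and control hearts, without telling the types of these cells apart. The controls were littermates from crosses of Ogt f/f females with TnT-Cre males, so by descent each carried a floxed Ogt allele. Their labels read only control or WT, so neither their sex nor whether they carried Cre is known. The labels give the strain as B6, while the methods of the study name a mix of C57BL/6J with another inbred strain. The labels state neither the number of hearts in a library, nor the litter, nor the time of day at dissection.

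The clock is a transcriptional feedback loop. The bHLH-PAS proteins CLOCK and BMAL1 (the product of Arntl) bind E-box DNA and activate the Per and Cry genes, whose proteins return to the nucleus and repress CLOCK and BMAL1. A coupled loop runs through REV-ERB alpha and beta, the products of Nr1d1 and Nr1d2, which are themselves E-box targets and repress Arntl by competing with ROR activators. DBP, a PAR bZIP activator of D-box genes, is a classical output of the loop. OGT, the only enzyme that adds O-GlcNAc to nuclear and cytosolic proteins, is known to modify BMAL1 and CLOCK, which slows their ubiquitination, and also PER2.

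In cKO hearts 8 of the 10 clock genes differed from control hearts, all by less than 2-fold: Clock, Per2, Per3, Cry2, Nr1d1 and Nr1d2 were higher and Cry1 and Dbp were lower. Arntl and Per1 did not pass the test. The test was limma on log2(FPKM + 0.5) over the 12629 entries with a mean of at least 1 FPKM (mapped fragments corrected for transcript length and for library size), with a call at a Benjamini-Hochberg adjusted p under 0.05. All 10 clock genes were among these entries. Over all entries tested 30.7% were called, 15.9% higher and 14.9% lower in cKO hearts. The 4 cKO libraries lay wholly to one side of the 4 control libraries for the same 8 clock genes, against 32.8% of all entries (16.5% higher and 16.3% lower in cKO hearts). The median size of the difference was 0.32 on the log2 scale over the 10 clock genes, and it was 0.14 over all entries tested and 0.32 over all entries called. Fold changes are given as cKO over control on the log2(FPKM + 0.5) scale, with their standard errors (SE), and this scale understates the change of low genes such as Dbp.

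Facts of the libraries that touch these values are few. Ogt itself had 20.1, 21.6, 24.7 and 21.5 FPKM in cKO libraries 1 to 4, against 41.6, 43.3, 37.5 and 46.2 FPKM in control libraries 1 to 4. The FPKM of all entries summed to between 562691 and 597833 in cKO libraries and between 539037 and 638014 in control libraries, and the read depth is unknown. Each library is also described by a prefix of unstated meaning, OGF355 in cKO library 1 and control libraries 1 and 2, and OGF373 in the other 5 libraries. The names of the value columns all carry OGF373. Cardiomyocyte markers such as Tnnt2 and Myh7 were abundant in every library, with a sum over 8 markers of 7660 to 8565 FPKM in cKO libraries and 6926 to 8429 FPKM in control libraries. In cKO library 3 alone, 5 liver markers summed to 49.9 FPKM, against 0.62 to 1.31 FPKM in the other 7 libraries. The 7 markers of blood leukocytes and macrophages summed to 5.59 to 7.68 FPKM in cKO libraries and 5.23 to 8.63 FPKM in control libraries, with Cd68 the highest at a mean of 2.16 FPKM over the 8 libraries, and neither of the 2 that were tested, Cd68 and Csf1r, passed. As whole hearts were measured, fewer cells of a type and less RNA per cell cannot be told apart.

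**Figure D1:**
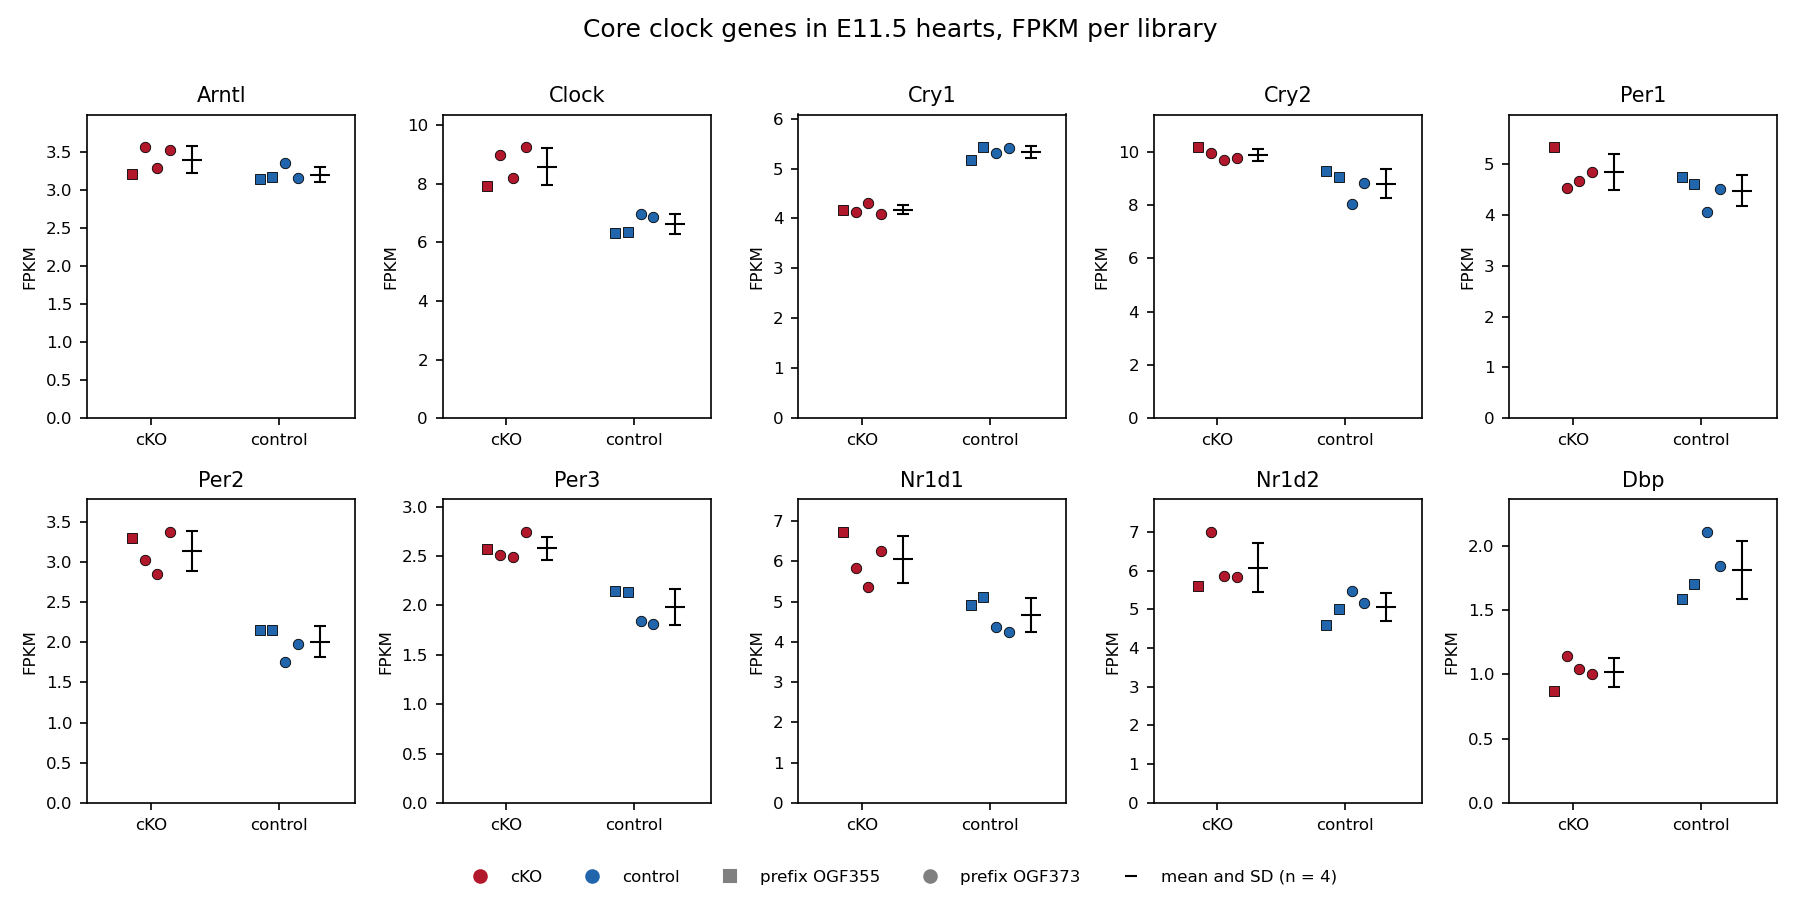
FPKM of the 10 core clock genes in each library, cKO left and control right of each panel, with the mean and SD of 4 libraries beside the points and squares for libraries of prefix OGF355. For 8 genes the groups do not overlap, and for Arntl and Per1 they do.

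By FPKM, which is scaled to transcript length and so can be set side by side between genes, the clock genes were expressed at low levels. Cry2 was the highest in both groups, at a mean of 9.90 FPKM in cKO hearts and 8.81 FPKM in control hearts, and Dbp was the lowest, at 1.01 FPKM in cKO hearts and 1.81 FPKM in control hearts. In cKO hearts the means ran from Cry2 through Clock, Nr1d2, Nr1d1, Per1, Cry1, Arntl, Per2 and Per3 down to Dbp. In control hearts the order was Cry2, Clock, Cry1, Nr1d2, Nr1d1, Per1, Arntl, Per2, Per3 and Dbp, so Cry1 stood at the sixth place in cKO hearts and at the third in control hearts. Neighbours whose libraries overlapped in cKO hearts were Nr1d2 with Nr1d1 and Arntl with Per2. In control hearts the overlapping neighbours were Cry1 with Nr1d2, Nr1d2 with Nr1d1, Nr1d1 with Per1, Per2 with Per3, and Per3 with Dbp.

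The promoter windows of 9 of the 10 genes (all but Per2) were read from RefSeq on GRCm38.p6, each reaching from 250 bases before to 50 bases after an annotated start. They are shown for 4 genes because clock factors can act through short elements near the start. The 4 genes were picked with their values known, and the part of these elements in the changes was not tested. All elements were searched on both strands, so a match may appear as its reverse complement. The E-box was searched as CACGTG. The E'-box, a weaker form of it, was searched as CACGTT. The D-box was searched as TTATGTAA and as TTACGTAA. The ROR element, which REV-ERB proteins share with ROR activators, was searched as TAGGTCA. A form of the ROR element with a changed base was searched as TGGGTCA. The cAMP element was searched as TGACGTCA. Matches are in capitals, and no kinds of match overlap in the windows shown.
Cry1 (chr10:85185005-85185304, minus strand): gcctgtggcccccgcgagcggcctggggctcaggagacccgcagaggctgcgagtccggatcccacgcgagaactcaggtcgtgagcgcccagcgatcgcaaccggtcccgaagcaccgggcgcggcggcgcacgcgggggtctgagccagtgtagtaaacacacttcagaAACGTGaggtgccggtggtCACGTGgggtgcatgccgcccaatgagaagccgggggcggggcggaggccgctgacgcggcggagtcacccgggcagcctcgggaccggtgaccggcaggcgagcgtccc
Per1 (chr11:69098699-69098998, plus strand): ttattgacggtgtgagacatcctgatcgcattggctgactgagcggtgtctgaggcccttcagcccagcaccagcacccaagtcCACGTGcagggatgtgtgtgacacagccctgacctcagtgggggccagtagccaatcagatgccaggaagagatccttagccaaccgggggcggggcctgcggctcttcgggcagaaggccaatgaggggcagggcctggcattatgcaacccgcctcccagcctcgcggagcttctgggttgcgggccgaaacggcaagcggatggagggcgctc
Nr1d1 (chr11:98775328-98775627, minus strand): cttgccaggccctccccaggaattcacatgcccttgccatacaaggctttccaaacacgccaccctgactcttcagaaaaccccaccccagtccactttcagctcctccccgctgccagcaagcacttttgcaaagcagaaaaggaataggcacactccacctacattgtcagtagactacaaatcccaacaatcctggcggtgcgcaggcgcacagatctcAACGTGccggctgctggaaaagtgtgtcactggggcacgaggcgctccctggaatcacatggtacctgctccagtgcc
Per3 (chr4:151044616-151044915, minus strand): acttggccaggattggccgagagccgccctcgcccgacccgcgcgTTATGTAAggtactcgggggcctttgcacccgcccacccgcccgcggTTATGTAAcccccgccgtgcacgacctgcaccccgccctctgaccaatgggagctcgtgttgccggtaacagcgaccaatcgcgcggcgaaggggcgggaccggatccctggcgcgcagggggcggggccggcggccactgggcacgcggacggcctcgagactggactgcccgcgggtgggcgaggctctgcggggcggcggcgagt
The E-box was found in the windows of Cry1 and Per1 and in 7.15% of 32851 mouse promoter windows. The E'-box was found in Cry1, Cry2 and Nr1d1 and in 4.68% of all windows. The Cry1 window holds both forms. The D-box TTATGTAA, the element of DBP and its relative TEF, begins at bases 46 and 93 of the Per3 window and was found in 0.938% of all windows. The other forms, TTACGTAA (0.119% of all windows), TGGGTCA (3.98%) and TGACGTCA (1.79%), were in none of the clock gene windows. The ROR element TAGGTCA was found in a window of Arntl, beginning at base 281, and in 2.61% of all windows. The windows of Clock, Nr1d2 and Dbp held none of these letters, and for Per1 and Arntl only 1 of 2 annotated windows held a match. Sequence outside the windows was not searched, so a window without a match does not show that its gene lacks the element. These matches are descriptions of sequence, and binding was not measured.

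Of the activator pair, Clock rose in cKO hearts while its partner Arntl did not pass the test. Clock (chr5:76212177-76304548 of mm10, minus strand, 23 exons in its longest coding transcript) had 7.91, 8.99, 8.18 and 9.25 FPKM in cKO libraries 1 to 4, against 6.32, 6.34, 6.98 and 6.86 FPKM in control libraries 1 to 4. The lowest cKO library was above the highest control library. The means were 8.58 ± 0.641 FPKM in cKO hearts and 6.63 ± 0.343 FPKM in control hearts (SD, n = 4 each), a log2 fold change of 0.35 (SE 0.06, adjusted p = 0.00356 from limma). The deposited span of the microRNA gene Mir1191 covers Clock, and Mir1191 is listed at 0.001 FPKM in all 8 libraries. Arntl (chr7:113207465-113314126, plus strand) had 3.21, 3.56, 3.29 and 3.53 FPKM in cKO libraries, against 3.14, 3.17, 3.35 and 3.15 FPKM in control libraries. Its groups overlapped, since control library 3 exceeded cKO libraries 1 and 3. Its log2 fold change was 0.07, with a 95% interval of -0.05 to 0.20 and an adjusted p of 0.329 from limma. Within each library Clock was 2.46 to 2.62 times Arntl in cKO hearts and 2.00 to 2.18 times Arntl in control hearts, without overlap. This ratio and those below were chosen after the values were seen and are given without a test.

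Of the 3 Period genes, which encode the PAS-domain partners of the CRY repressors, Per2 and Per3 rose and Per1 did not pass. Per2 (chr1:91415982-91459328, minus strand) had 3.30, 3.03, 2.84 and 3.38 FPKM in cKO libraries 1 to 4, against 2.15, 2.15, 1.75 and 1.98 FPKM in control libraries 1 to 4. Its mean was 56.1% higher in cKO hearts, the largest relative rise of the 10 genes. The log2 fold change of Per2 was 0.54 (SE 0.08, adjusted p = 0.00148 from limma). Per3 (chr4:151003655-151044622, minus strand) had 2.58, 2.51, 2.49 and 2.75 FPKM in cKO libraries, against 2.15, 2.13, 1.84 and 1.81 FPKM in control libraries. In control hearts both Per3 and Per2 were higher in libraries 1 and 2 than in libraries 3 and 4. The log2 fold change of Per3 was 0.31 (SE 0.07, adjusted p = 0.011 from limma). GENCODE places the span of Per3 inside that of Camta1, a transcription activator on the same strand, though the deposited spans of the genes do not overlap. Camta1 had a log2 fold change of -0.14 (adjusted p = 0.065 from limma). Per1 (chr11:69098956-69109957, plus strand), which also responds directly to cAMP and glucocorticoid signals, had 5.34, 4.53, 4.68 and 4.85 FPKM in cKO libraries, against 4.74, 4.61, 4.05 and 4.51 FPKM in control libraries. The groups of Per1 overlapped, and its log2 fold change of 0.10 had a 95% interval of -0.05 to 0.25 (adjusted p = 0.268 from limma). Per2 was 0.608 to 0.696 times Per1 within cKO libraries and 0.433 to 0.466 times Per1 within control libraries.

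The 2 Cryptochrome genes, which encode the main repressors of CLOCK and BMAL1, moved in opposite directions. Cry1 (chr10:85131700-85185054, minus strand) had 4.17, 4.13, 4.30 and 4.10 FPKM in cKO libraries 1 to 4, against 5.17, 5.43, 5.31 and 5.42 FPKM in control libraries 1 to 4. Both groups were tight and well apart. Cry1 was 4.17 ± 0.0913 FPKM in cKO hearts and 5.33 ± 0.119 FPKM in control hearts (SD, n = 4 each), a log2 fold change of -0.32 (SE 0.04) with the smallest adjusted p of the 10 genes, 0.000857 from limma. Cry2 (chr2:92403647-92434069, minus strand) had 10.2, 9.95, 9.69 and 9.76 FPKM in cKO libraries, against 9.29, 9.05, 8.05 and 8.84 FPKM in control libraries. The gap between its groups was narrow, and control library 3 was the lowest. Its log2 fold change was 0.16 (SE 0.05, adjusted p = 0.0386 from limma), and without cKO library 1, 2, 3 or 4 or control library 2 or 4 its adjusted p was 0.0627 to 0.0916. The ratio of Cry2 to Cry1 was 2.25 to 2.45 within cKO libraries and 1.51 to 1.79 within control libraries. An antisense entry within the span of Cry2, D930015M05Rik, averaged 0.341 FPKM in cKO hearts and 0.371 FPKM in control hearts.

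Both REV-ERB genes, which encode the haem-binding repressors of Arntl, were higher in cKO hearts. Nr1d1 (chr11:98767935-98775242, minus strand) had 6.73, 5.84, 5.36 and 6.27 FPKM in cKO libraries 1 to 4, against 4.92, 5.10, 4.36 and 4.25 FPKM in control libraries 1 to 4. Its log2 fold change was 0.34 (SE 0.08, adjusted p = 0.013 from limma). In the GENCODE annotation the 3' end of Nr1d1 overlaps the opposite-strand gene Thra, a thyroid hormone receptor, over 1072 bases. Thra went the other way, at 28.7 to 29.9 FPKM in cKO libraries and 31.1 to 36.4 FPKM in control libraries (log2 fold change -0.17, adjusted p = 0.0419 from limma). Nr1d2 (chr14:18204056-18239106, minus strand) had 5.59, 7.00, 5.85 and 5.85 FPKM in cKO libraries, against 4.60, 5.01, 5.48 and 5.16 FPKM in control libraries. Its cKO library 2 stood above the rest and the gap between the groups was small. The log2 fold change of Nr1d2 was 0.24 (SE 0.08, adjusted p = 0.0443 from limma). It was 0.17 without cKO library 2 (adjusted p = 0.0933) and was also not called without cKO library 3 or 4 or control library 1, 2 or 4 (adjusted p 0.0687 to 0.103).

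Dbp, the output gene of the set, was lower in cKO hearts and had the largest difference on the log2 scale. Dbp (chr7:45705247-45710203, plus strand, 4 exons) had 0.873, 1.14, 1.04 and 0.998 FPKM in cKO libraries 1 to 4, against 1.58, 1.70, 2.11 and 1.84 FPKM in control libraries 1 to 4. The highest cKO library stayed under the lowest control library, and Dbp was 1.01 ± 0.112 FPKM in cKO hearts and 1.81 ± 0.225 FPKM in control hearts (SD, n = 4 each). The log2 fold change was -0.61 (SE 0.10, adjusted p = 0.00239 from limma). The last 741 bases of its span are shared with the opposite-strand entry of Sphk2, a sphingosine kinase, which had 7.73 to 8.48 FPKM in cKO libraries and 7.48 to 8.40 FPKM in control libraries (log2 fold change 0.04, adjusted p = 0.609 from limma). Dbp and Nr1d1, which are both described as direct E-box targets of CLOCK and BMAL1, went opposite ways. Dbp was 0.130 to 0.196 times Nr1d1 within cKO libraries and 0.322 to 0.484 times Nr1d1 within control libraries. Of the 6 ratios computed, Per2 to Cry1 was also apart (0.661 to 0.824 in cKO libraries and 0.330 to 0.416 in control libraries), while Nr1d1 to Nr1d2 overlapped, at 0.834 to 1.20 in cKO libraries and 0.795 to 1.07 in control libraries. A ratio of genes that moved opposite ways without overlap, such as Dbp and Nr1d1, had to be apart.

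**Figure D2:**
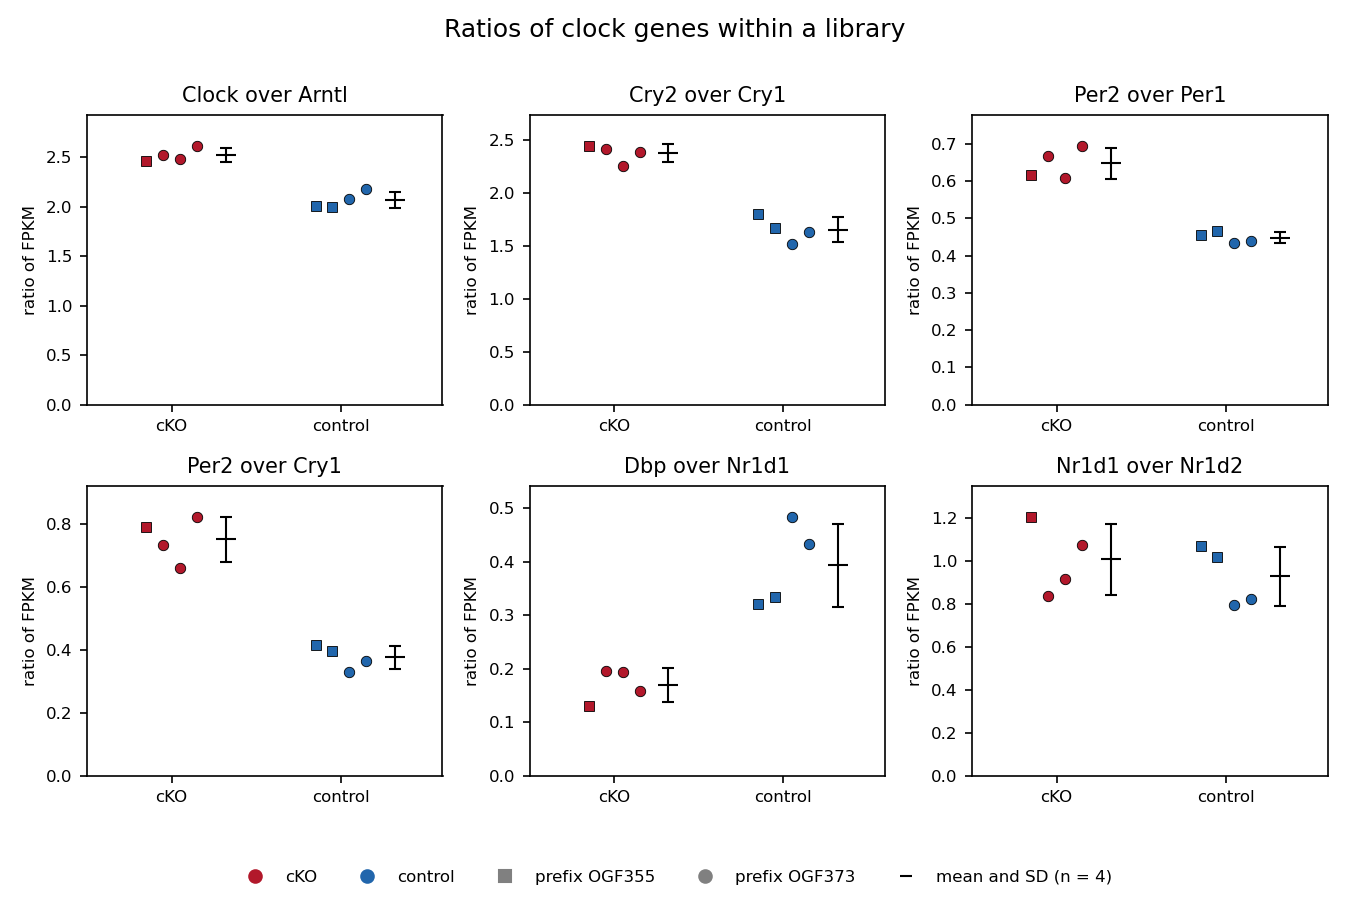
Ratio of the FPKM of a pair of clock genes within each library, cKO left and control right, with the mean and SD of 4 libraries and squares for prefix OGF355. The groups do not overlap for 5 of the 6 ratios and overlap for Nr1d1 over Nr1d2, and Dbp over Nr1d1 is 0.130 in cKO library 1, the lowest of the 8. For Cry2 over Cry1, Per2 over Cry1 and Dbp over Nr1d1 this follows from the single genes, which moved opposite ways without overlap.

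For each of the 8 called genes the exact two-sided permutation test over the libraries gave p = 0.0286, the smallest that 4 against 4 allow. That value follows whenever the groups do not overlap, which held for 32.8% of all entries tested, so it adds nothing to the separation given above. The same exact permutation test gave p = 0.114 for Arntl and p = 0.171 for Per1. Within the libraries of prefix OGF373, 3 cKO against 2 control, the log2 differences were 0.33 for Clock, 0.60 for Per2, 0.41 for Per3, 0.39 for Nr1d1, 0.20 for Cry2, 0.21 for Nr1d2, -0.33 for Cry1 and -0.66 for Dbp. Within prefix OGF355, 1 cKO library against 2 control libraries, the same differences were 0.30, 0.52, 0.22, 0.39, 0.14, 0.20, -0.31 and -0.64, in that order of genes. The sign was the same in both prefixes for all 10 genes.

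The libraries of a group were also set side by side by prefix. In control hearts the libraries of prefix OGF355 were wholly to one side of those of OGF373 for 8 of the 10 clock genes, against 41.4% of all entries tested. Cry2, Per1, Per2, Per3 and Nr1d1 were higher in OGF355, and Clock, Nr1d2 and Dbp were lower. For 6 of these 8 genes (all but Per2 and Per3) cKO library 1, also of prefix OGF355, lay outside the range of cKO libraries 2 to 4 on the same side, against 20.5% of all entries. Nr1d1 was higher in OGF355 by 0.20 on the log2 scale in cKO hearts and by 0.20 in control hearts, and Dbp differed by -0.18 in cKO hearts and by -0.21 in control hearts. This comparison of prefixes was chosen after the values were seen. With genotype in the fit, none of the 10 clock genes passed for the prefix itself (limma adjusted p 0.187 to 0.926), a fit that called 0.095% of all entries. With the prefix as a covariate the log2 fold changes of cKO over control were 0.39 for Nr1d1, 0.57 for Per2, 0.34 for Per3, 0.32 for Clock, -0.66 for Dbp and -0.32 for Cry1, all with adjusted p under 0.05 from limma. In that fit Cry2 was at 0.18 (adjusted p = 0.0146 from limma) and Nr1d2 was not called, at 0.20 (adjusted p = 0.0537 from limma). The part of litter, time of day or handling in the prefix was not tested.

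**Figure D3:**
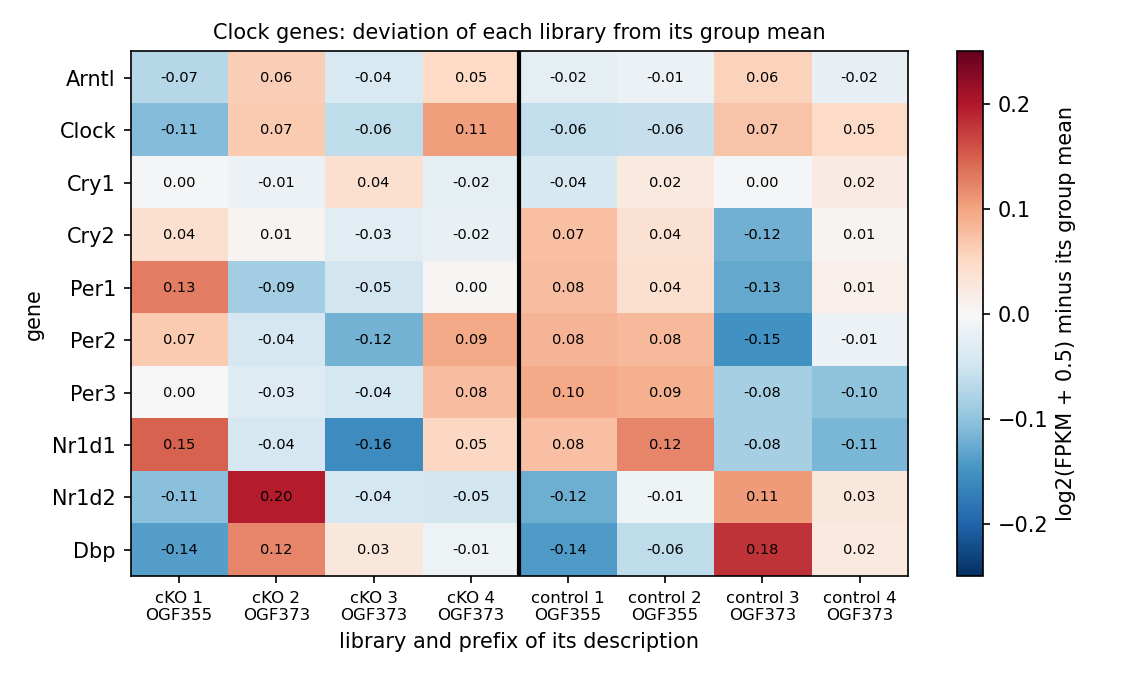
Deviation of log2(FPKM + 0.5) of each library from the mean of its own group, for the 10 clock genes in rows and the 8 libraries in columns, cKO left of the black line and control right of it, with the prefix under each name. Nr1d1 deviates by 0.15 in cKO library 1 and by 0.08 and 0.12 in control libraries 1 and 2, while Dbp deviates by -0.14, -0.14 and -0.06 in the same libraries.

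Of 7 tested genes of clock paralogs and the auxiliary loop, Ciart fell, Tef rose and 5 did not pass. The share called was 28.6%, against 30.7% of all entries tested. Ciart, a repressor of CLOCK and BMAL1 also called CHRONO and entered in the deposited values under its older symbol Gm129, had 1.70, 1.93, 2.00 and 1.97 FPKM in cKO libraries 1 to 4, against 3.55, 3.68, 3.51 and 3.04 FPKM in control libraries 1 to 4. The groups were far apart, with a log2 fold change of -0.72 (SE 0.07, adjusted p = 0.000333 from limma). On the log2(FPKM + 0.5) scale this change was larger than that of any of the 10 core genes. In mean FPKM, however, Ciart differed by -44.8% and Dbp by -43.9% in cKO hearts. Tef, a PAR bZIP factor like DBP that binds the same D-box, was 13.0 ± 0.467 FPKM in cKO hearts and 10.7 ± 0.323 FPKM in control hearts (SD, n = 4 each). Tef therefore rose (log2 fold change 0.27, SE 0.04, adjusted p = 0.00212 from limma) while Dbp fell. Nfil3, the bZIP repressor of D-box genes, had 14.6 to 17.7 FPKM in cKO libraries and 15.6 to 19.0 FPKM in control libraries, and Bhlhe40, an E-box repressor, had 7.80 to 11.0 FPKM in cKO libraries and 7.60 to 10.5 FPKM in control libraries. Neither passed the test. Npas2, the paralog of Clock, averaged 0.203 FPKM in cKO hearts and 0.159 FPKM in control hearts and was too low to be tested, as were Hlf and Rorb. The median log2 fold change of the 7 genes was -0.05, against 0.02 over all entries tested.

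Of 9 tested kinases and ubiquitin ligase subunits that act on clock proteins, 1 was lower and 8 did not pass. The share called was 11.1%, against 30.7% of all entries tested. The groups did not overlap for 4 of the 9 genes, Csnk2a1 among them, against 32.8% of all entries tested. The lower gene was Csnk1e, the casein kinase 1 epsilon that phosphorylates PER proteins, at 35.8 to 40.0 FPKM in cKO libraries and 40.1 to 42.7 FPKM in control libraries. Its log2 fold change was -0.15 with an adjusted p of 0.04997 from limma, the highest p among the 3879 entries called. It was not called without cKO library 1, 2 or 4 or control library 1, 2 or 4 (adjusted p 0.0655 to 0.139), nor in 9 of the 12 other alternatives (adjusted p 0.0515 to 0.338). Csnk1a1, of the same kinase family, had 128 to 142 FPKM in cKO libraries and 130 to 143 FPKM in control libraries. Csnk2a1, a kinase of BMAL1, had 53.9 to 56.3 FPKM in cKO libraries and 50.3 to 53.7 FPKM in control libraries (log2 fold change 0.09, adjusted p = 0.115 from limma).

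Of 11 tested genes described as controlled by the clock in other tissues, 4 were higher, 3 were lower and 4 did not pass. The share called was 63.6%, against 30.7% of all entries tested. This list was chosen with earlier results of these data known, so its share is a description only. Klf15, a Kruppel-like factor with a circadian rhythm in adult heart, had 4.64, 5.51, 4.88 and 5.50 FPKM in cKO libraries 1 to 4, against 2.46, 2.56, 2.65 and 2.63 FPKM in control libraries 1 to 4. It had the largest log2 fold change of the list, 0.87 (SE 0.07, adjusted p = 8.26e-05 from limma). Ccrn4l, the deadenylase-related Nocturnin, had 7.04 to 7.78 FPKM in cKO libraries and 5.12 to 6.11 FPKM in control libraries (log2 fold change 0.34, adjusted p = 0.00327). Cdkn1a, the cell cycle inhibitor p21 and a target of REV-ERB repression, had 17.5 to 22.0 FPKM in cKO libraries and 12.3 to 15.9 FPKM in control libraries. Its log2 fold change was 0.38 (adjusted p = 0.0161 from limma). It was not called with no filter (adjusted p = 0.0503), with the replicate number as a block (0.0554) or in the OGF373 libraries alone (0.109). Alas1, the first enzyme of haem synthesis, rose by 0.25 on the log2 scale (adjusted p = 0.0206 from limma), and had an adjusted p of 0.0554 without haemoglobin and mitochondrially encoded genes.

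Pdk4, a kinase that inhibits pyruvate dehydrogenase, had 3.95, 4.03, 4.35 and 4.35 FPKM in cKO libraries 1 to 4, against 7.21, 7.21, 7.08 and 6.79 FPKM in control libraries 1 to 4. It was the most reduced gene of the clock-controlled list, with a log2 fold change of -0.70 (SE 0.05, adjusted p = 6.12e-05 from limma). Klf10, another Kruppel-like factor driven by CLOCK and BMAL1 in liver, had 5.57 to 6.17 FPKM in cKO libraries and 7.84 to 8.70 FPKM in control libraries (log2 fold change -0.48, adjusted p = 0.000374). Tfrc, the transferrin receptor, fell by 0.25 on the log2 scale (adjusted p = 0.0316 from limma) and was not called without cKO library 3 or 4 or control library 1 or 2 (adjusted p 0.0542 to 0.0831). It was also not called with no filter on low values (0.0709), without haemoglobin and mitochondrially encoded genes (0.0552) or in the OGF373 libraries alone (0.169). Por, the cytochrome P450 reductase, and Wee1, a cell cycle kinase with E-boxes in its promoter, did not pass. Wee1 had 14.3 to 14.5 FPKM in cKO libraries and 14.5 to 15.1 FPKM in control libraries. The median log2 fold change of the 11 genes was -0.05, against 0.02 over all entries tested.

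**Figure D4:**
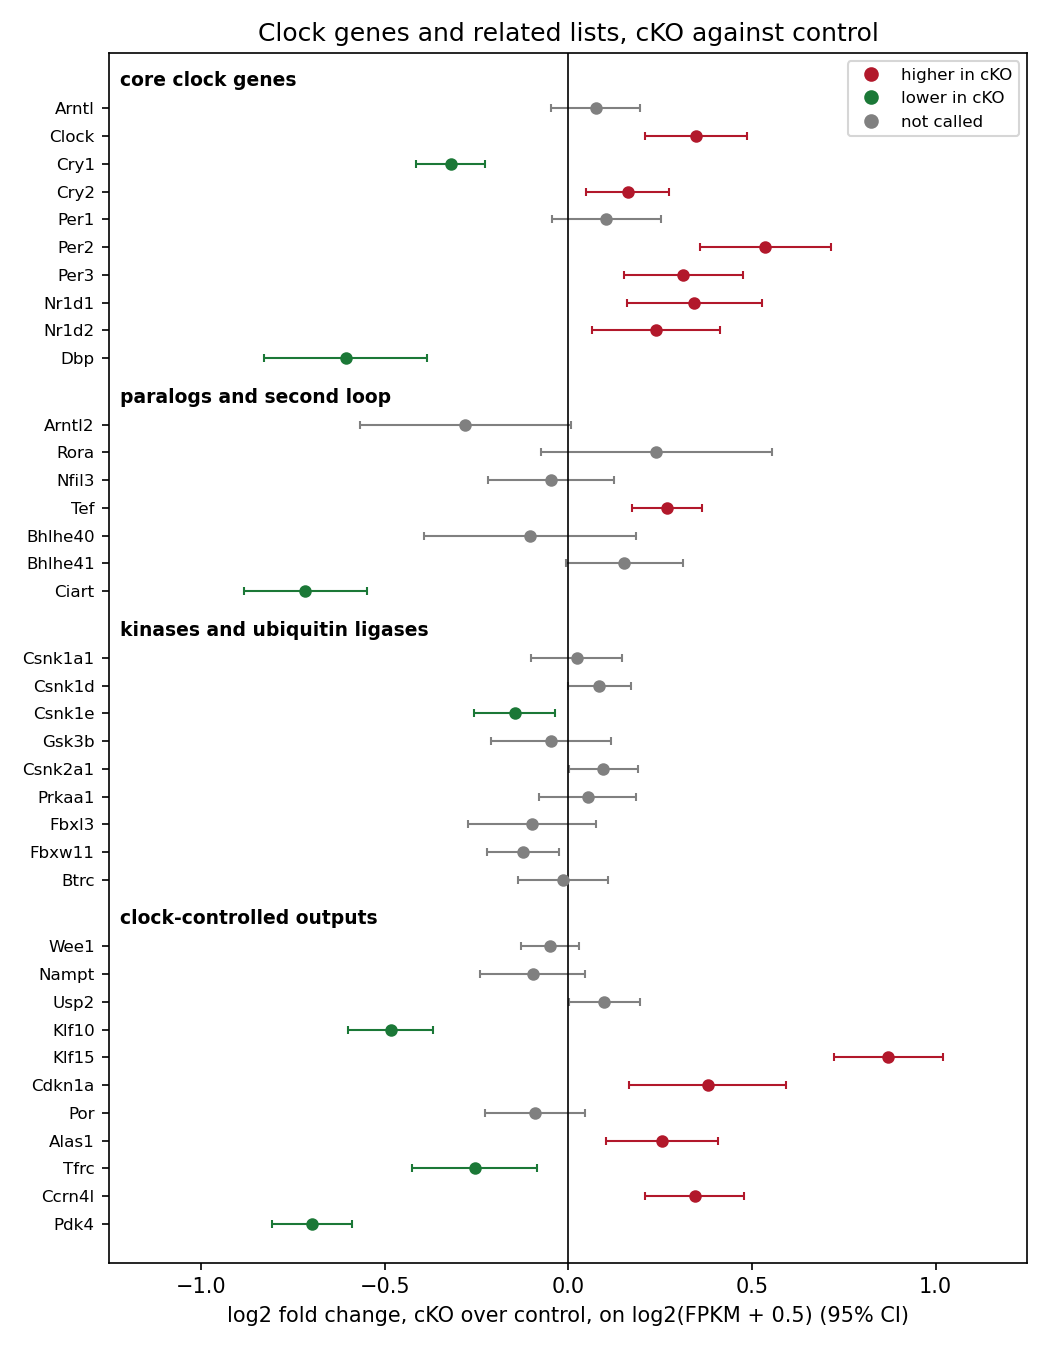
Log2 fold change of cKO over control on log2(FPKM + 0.5) with its 95% interval for the core clock genes and the tested genes of 3 related lists, red for higher in cKO, green for lower in cKO and grey for not called. On this scale Ciart at -0.72, Pdk4 at -0.70 and Dbp at -0.61 are the lowest, and Klf15 at 0.87 is the highest. The differences in mean FPKM are -44.8%, -41.1% and -43.9% for Ciart, Pdk4 and Dbp, in that order.

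Signals that reach Per1 and other clock genes from outside the loop were described by 2 further lists. Of 8 tested genes induced by glucocorticoids, Fkbp5 and Tsc22d3 were lower and 6 did not pass. The share called was 25%, against 30.7% of all entries tested. Among these 6, log2 fold changes were positive for Mt1, Mt2 and Nfkbia (0.55, 0.66 and 0.27). They were negative for Ddit4, Sgk1 and Errfi1 (-0.28, -0.14 and -0.02). Fkbp5, a co-chaperone of the glucocorticoid receptor, had 8.67 to 10.9 FPKM in cKO libraries and 11.4 to 12.7 FPKM in control libraries (log2 fold change -0.29, adjusted p = 0.0256 from limma). Of 12 tested immediate early genes, Ier3 was higher, Egr1 and Nr4a1 were lower, and 9 did not pass. Here too 25% were called, against 30.7% of all entries tested. Egr1, a zinc finger factor induced within minutes by growth signals, had 3.65 to 4.13 FPKM in cKO libraries and 5.38 to 7.13 FPKM in control libraries (log2 fold change -0.62, adjusted p = 0.00208 from limma). Ier3 had 17.2 to 19.5 FPKM in cKO libraries and 12.4 to 13.3 FPKM in control libraries.

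Some markers of other cells of the heart moved between the groups beside the clock genes. Of 7 endothelial markers 4 were lower (Cdh5, Tie1, Tek and Pecam1), and the list summed to 218 to 230 FPKM in cKO libraries and 239 to 268 FPKM in control libraries. Of 6 epicardial markers 4 were higher, among them Krt19 and Wt1, and the list summed to 211 to 247 FPKM in cKO libraries and 167 to 184 FPKM in control libraries. Of 7 mesenchymal markers 1 was higher, Dcn, and the list summed to 320 to 422 FPKM in cKO libraries and 298 to 374 FPKM in control libraries. The shares called were 57.1% of the endothelial, 66.7% of the epicardial and 14.3% of the mesenchymal markers, against 30.7% of all entries tested. None of 8 cardiomyocyte markers and none of 7 erythroid markers passed. The erythroid markers, with Hba-a1 entered at 2 loci and so 8 entries in all, summed to 36117 to 53581 FPKM in cKO libraries and 17439 to 68849 FPKM in control libraries. The part of these cell types in the clock gene values was not tested. With haemoglobin and mitochondrially encoded genes removed and each library rescaled, 7 of the 8 clock genes were still called, and Cry2 was at a log2 fold change of 0.17 (adjusted p = 0.172 from limma).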

How the data were processed

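Hearts at embryonic day 11.5 were compared in 4 cKO and 4 control libraries. The authors prepared stranded mRNA libraries, mapped the reads (TopHat2, Bowtie2, genome mm10) and deposited 23846 gene entries in FPKM. Tool versions, the annotation and the strand setting of the counting are not given in the sources used here. FPKM rests on estimated transcript abundances, so a shift between isoforms can move it. Text codes stand in place of numbers in 1.32% of cells. A further column holds p-values of the authors' own comparison and was not used.

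Of 23521 entries with numeric values throughout, the 12629 that averaged 1 FPKM or more entered limma 3.58.1 (R 4.3.3) as log2(FPKM + 0.5), with 2 group means and a variance trend, at a Benjamini-Hochberg adjusted p under 0.05. Cuffdiff2, named by the study, needs reads. Exact permutation tests, two-sided, served for single genes. Labels do not say that libraries came from separate animals, so p-values measure only the spread between libraries. The procedure was tested on simulated data. The genes and lists were chosen with earlier results of these data known. The text names the 10 core genes, Ogt, every called gene and the 2 most abundant uncalled genes of 3 clock lists, up to 2 called genes with the smallest adjusted p of each other list, and entries whose deposited span overlaps a core gene. Other genes, such as Thra, Camta1, Npas2, Nr4a1 and further markers, fall outside this rule and were named after their values were seen. Some genes were taken out of the lists and are not reported here.

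Of deposited starts, 56.1% lie 1 base below the RefSeq start and 3.3% equal it, so starts were read as zero-based and 1 was added. Promoters came from RefSeq (GRCm38.p6). Alternatives were pseudocounts of 0.1 and 1, no filter or a minimum mean of 5 FPKM, scaling by quantiles or by median ratios, haemoglobin and mitochondrially encoded genes taken out, no trend, array weights (statmod 1.5.0), a replicate block, the prefix as covariate or OGF373 alone, and leaving out each library. Figures were drawn with Python 3.11.15 and matplotlib 3.10.9.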

Additional observations from a re-analysis of the deposited data

Results flagged for a closer look

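Arntl in control library 3 stood apart from the other 3 control libraries at 3.35 FPKM, against 3.14 to 3.17 FPKM. Its gap to the nearest library was 0.882 of the range of the group, above Dixon's critical value for groups of this size. It was the single flag among 20 groups of values (10 genes in 2 groups), where about 1 in 20 is flagged by chance. Without control library 3 the log2 fold change of Arntl was 0.09 and the adjusted p from limma was 0.199.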

How the results depend on the processing

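Each of the 10 core genes kept its direction in every alternative that tested it and when any library was left out. Clock, Per2, Per3, Nr1d1, Cry1 and Dbp were called in all of these, at adjusted p up to 0.0436. Cry2 was not called with no filter (0.16, adjusted p = 0.0537), with median ratio scaling (0.14, adjusted p = 0.0822), without haemoglobin and mitochondrially encoded genes (0.17, adjusted p = 0.172) or within prefix OGF373 alone (0.20, adjusted p = 0.0914), and with a library left out it ran from 0.12 to 0.19. Nr1d2 was not called with no filter or a mean of at least 5 FPKM (0.24 in each, adjusted p = 0.0973 and 0.0616), quantile normalization (0.23, adjusted p = 0.0544), median ratio scaling (0.22, adjusted p = 0.0616), the replicate block (0.24, adjusted p = 0.0533), the prefix as covariate (0.20, adjusted p = 0.0537) or prefix OGF373 alone (0.21, adjusted p = 0.203), and ran from 0.17 to 0.27 with a library left out. The cause was not tested.

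At a mean of at least 5 FPKM only 4 core genes were tested, and 3 were higher and 0 lower. With the replicate block 5 core genes were higher and 2 lower. Same-numbered libraries correlated at 0.127, 0.158, -0.012 and 0.013 in their deviations, so the numbers were not taken as pairs, and 2 of 4 cKO libraries correlated best with their own number. With a library left out, 4 to 6 core genes were higher and 2 lower.

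Among genes of the auxiliary loop, 2 were higher and 2 lower with array weights, 0 were lower at a mean of at least 5 FPKM, and 1 to 2 were lower with a library left out. Of the kinases and ligases, 2 were higher with no filter or array weights, 0 to 1 with a library left out. Of these, 0 were lower with a pseudocount of 0.1, with a minimum mean of 5 FPKM, without haemoglobin genes, with no trend, with the block or in OGF373 alone, and 2 with median ratio scaling, array weights or the prefix as covariate (0 to 1 with a library left out). Array weights raised the entries called over the whole series to 6582, and OGF373 alone gave 1465, against 3879. Read depth is unknown, so counting error at low FPKM, as for Dbp, cannot be given.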
